A study of Homo sapiens with 6 samples.

Results

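TCN1 and 9 further genes of vitamin B12 binding, uptake and use and of propionyl-CoA carboxylation were followed in human colorectal cancer cells. The genes are TCN1, TCN2, CD320, LMBRD1, MMACHC, MMADHC, MTR, MTRR, PCCA and PCCB, 10 of the 19775 genes that have a probe set of their own on the array. They are read by 16 probe sets, all those whose only gene symbol in the platform annotation is one of these names. TCN1 was chosen by its adjusted p in the comparison of M5 with SW480 on all 6 arrays, and the others were chosen because they act in the same pathway, so the differences between M5 and SW480 given for these genes are a description and support nothing by themselves. M5 is a subpopulation of SW480 with a raised ability to spread to the liver, obtained by selection in an animal. SW480 is the parental colorectal cancer line. Each group has 3 arrays of total RNA that the labels call biological replicates, and nothing in the labels says whether they came from separate cultures, so p-values measure only the spread between these arrays. Both groups were grown in the same serum-supplemented medium with no drug named in the labels, and M5 is a single selected population, not a set of independent isolates. The labels do not mention host cells left over from the selection.

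Vitamin B12 (cobalamin) reaches cells bound to carrier proteins. The carrier made by TCN1, haptocorrin, is stored in neutrophil granules and secreted into saliva and gastric juice, and the carrier made by TCN2, transcobalamin, delivers the vitamin to the receptor CD320 on the cell surface. After release from the lysosome the vitamin serves as cofactor of methionine synthase in the cytosol and of methylmalonyl-CoA mutase in mitochondria. The mutase acts downstream of propionyl-CoA carboxylase, the biotin enzyme whose subunits come from PCCA and PCCB.

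The promoters of TCN1 and PCCA are printed because, among the 10 genes, these have the most positive and the most negative difference below. They also differ in base composition. Each sequence runs from 250 bases before to 50 bases after the gene start in the RefSeq table of build GRCh38.p14, and capitals mark CpG dinucleotides. TCN1 lies at chr11:59866438-59866737 on the minus strand and PCCA at chr13:100088843-100089142 on the plus strand.
TCN1: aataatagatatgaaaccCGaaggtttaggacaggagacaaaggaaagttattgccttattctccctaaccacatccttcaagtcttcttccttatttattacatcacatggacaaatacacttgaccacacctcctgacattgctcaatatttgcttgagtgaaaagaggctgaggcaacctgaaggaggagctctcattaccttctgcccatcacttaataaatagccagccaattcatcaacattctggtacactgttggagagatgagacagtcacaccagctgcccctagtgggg
PCCA: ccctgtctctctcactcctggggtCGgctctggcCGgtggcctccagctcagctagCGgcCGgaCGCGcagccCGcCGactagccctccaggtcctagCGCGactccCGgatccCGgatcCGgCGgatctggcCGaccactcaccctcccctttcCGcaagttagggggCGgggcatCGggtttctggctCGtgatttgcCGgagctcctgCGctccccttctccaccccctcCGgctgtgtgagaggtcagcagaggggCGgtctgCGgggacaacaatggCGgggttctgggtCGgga
The TCN1 promoter held 1 CpG and was 43.0% G and C, and the PCCA promoter held 26 CpG and was 69.0% G and C. Over all 35116 promoters of the table the medians were 14 CpG and 58.7%. The table held 8 of the 10 genes, all but TCN2 and MTRR. Leaving aside TCN1, the first listed promoters of the other 7 held 17 to 26 CpG. CBLIF, the neighbour of TCN1 that encodes gastric intrinsic factor, a related B12 carrier, had 4 CpG.

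**Figure D1:**
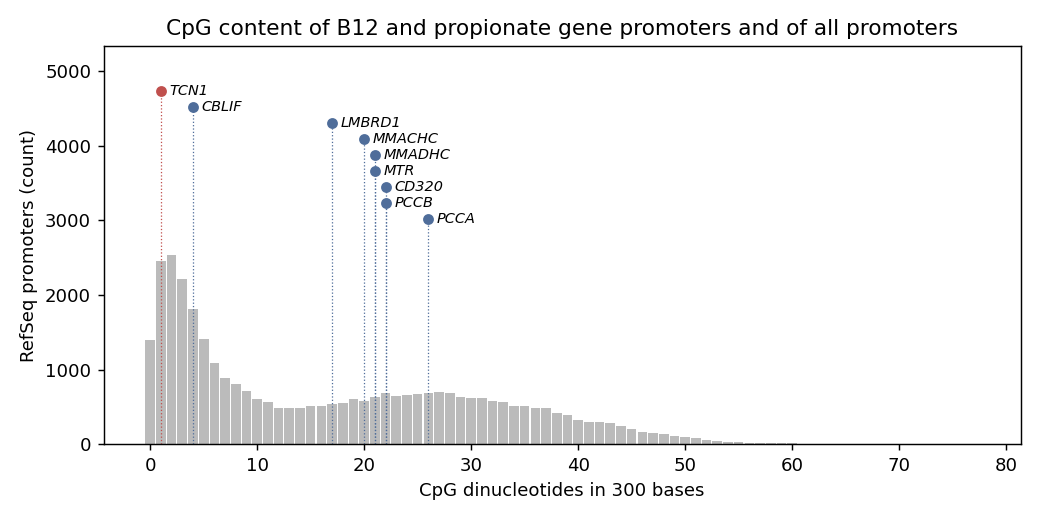
Grey bars count RefSeq promoters (y axis) by their number of CpG dinucleotides in 300 bases (x axis), and dots with dotted lines place the promoters of TCN1 (red) and of other B12 and propionate genes (blue); dot height has no meaning. TCN1 stands at 1 CpG and CBLIF at 4, and the others lie between 17 and 26.

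A GC box, a CCAAT box and a TATA box were searched on both strands of these promoters, as letters only. The GC box letters GGGCGG were found in the promoters of CD320, LMBRD1, MTR and PCCA and in 45.0% of all promoters, and not in the TCN1 window. CCAAT was found for TCN1, MMACHC, MMADHC and MTR and in 34.6% of all promoters, and TATAAA for none of the 8 genes and in 11.5% of all. A match is a description of letters and does not show binding, and a window without these letters says nothing about a factor.

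The signals come from Affymetrix U133 Plus 2.0 arrays, which read each transcript with a set of short probes. The deposited values are linear probe set signals with no detection calls, so which of them lay above background is unknown. The arrays differed in brightness: the 2% trimmed mean signal was 27.0 to 67.1 on M5 arrays and 20.9 to 86.4 on SW480 arrays, with replicate 1 the dimmest in both groups. Signals below were therefore quantile normalised unless called deposited. An 18S ribosomal RNA control was high on M5 replicate 1 and SW480 replicates 1 and 2 (2824 to 4163) and low on M5 replicates 2 and 3 and SW480 replicate 3 (96.3 to 234.1). M5 replicates 2 and 3 stood apart by their likeness, with r = 0.994 over the 10% brightest probe sets against 0.894 to 0.958 for the other 14 pairs of arrays. Means and SDs below therefore take their average as 1 value (n = 2 for M5, n = 3 for SW480). Epithelial markers were present in all arrays: EPCAM signal was 2240 to 2923 on M5 arrays and 2176 to 2559 on SW480 arrays, and KRT18 was 4522 to 4873 and 4021 to 5185 on the same groups. The intestinal factor CDX2 was at 3.45 to 3.95 on M5 arrays and 3.43 to 13.4 on SW480 arrays, and its probe set was left out by the filter on low signals. The number of arrays limits the precision.

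Of the 10 genes, 1 was called in the fit over 6 arrays, TCN1, and it was higher in M5, as were 0.0562% of all genes tested. Signals of TCN1 reached 135, 256 and 235 on the M5 arrays, against 42.0, 13.7 and 36.1 on the SW480 arrays, here and below in the order of replicates 1, 2 and 3. All M5 arrays stood above all SW480 arrays, and the lowest M5 value was 3.20 times the highest SW480 value. TCN1 averaged 190 ± 78.3 in M5 (SD, n = 2) and 30.6 ± 15.0 in SW480 (SD, n = 3). On the scale of log2(signal + 1.7), which understates changes of low signals, the fold change was 2.78 with a standard error (SE) of 0.41. The deposited signals were 67.7, 311.2 and 292.2 on M5 arrays and 18.5, 13.6 and 57.7 on SW480 arrays. Before scaling, too, the groups did not overlap. The M5 array with the lowest TCN1 was the dim replicate 1, and the SW480 array with the lowest TCN1 was replicate 2.

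The limma adjusted p of TCN1, the value for which it was picked, was 0.0471 over 32768 probe sets, near the threshold of 0.05. The probe sets on either side of the threshold had 0.0487 and 0.0566. Over all genes, 8 of 14243, or the share given above, were called higher and 6, or 0.0421%, lower, where a gene is represented by its brightest kept probe set. These counts depended on the arrays used, with 86 genes higher and 111 lower once M5 replicate 1 was left out, and 79 higher and 36 lower once SW480 replicate 1 was. There were 0 higher and 2 lower when M5 replicate 2 was left out or averaged with replicate 3, and 1 higher and 2 lower when M5 replicate 3 was left out. Omitting SW480 replicate 2 gave 2 higher and 4 lower, and omitting SW480 replicate 3 gave 3 higher and 2 lower. TCN1 ranked 11 of 14243 by log2 fold change. The call ended in 11 of 20 alternatives, over which the adjusted p ran from 0.000593 to 0.625. Among them, it ended when M5 replicates 2 and 3 were averaged (limma adjusted p = 0.284) and without the intensity trend in limma (0.332). It also ended without SW480 replicate 2 (0.119), SW480 replicate 3 (0.163), M5 replicate 2 (0.297) or M5 replicate 3 (0.271), and the fold change stayed between 2.33 and 3.44 in every alternative run. The direction could hardly turn, since the groups do not overlap.

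TCN1 differed by 1.64 on the log2 scale between the replicate 1 arrays and by 3.36 between replicates 2 and 3 of the groups. Among arrays with a high 18S control the difference was 2.40, and among those with a low one 2.71. The size therefore varied with the arrays compared. TCN1 has 1 probe set on the array, so no further probe set could be set beside it.

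**Figure D2:**
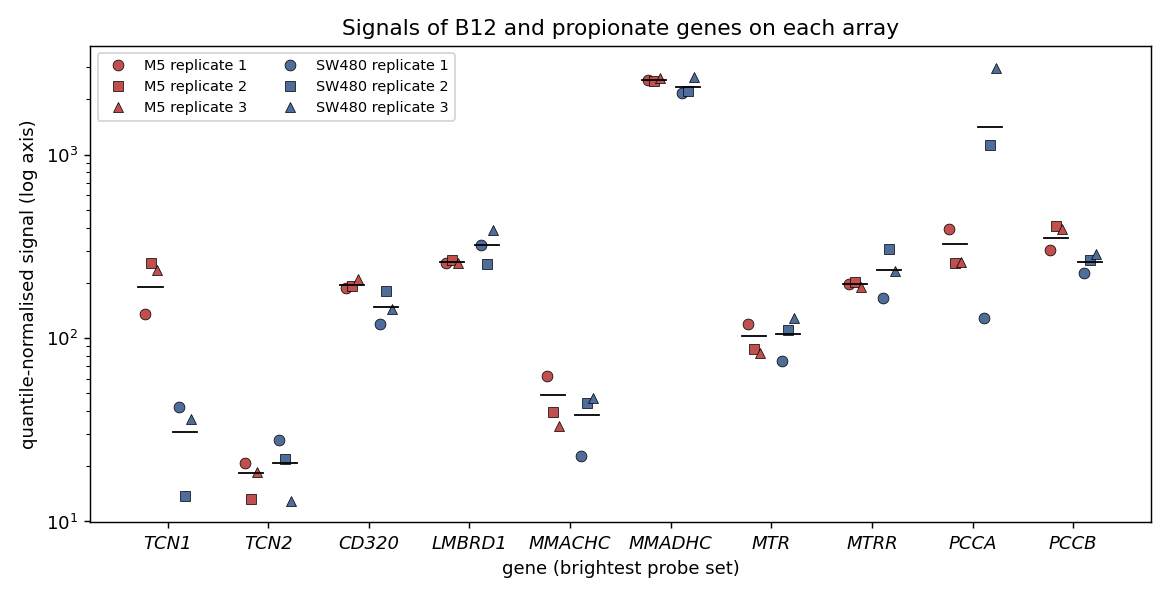
Quantile-normalised signal (y axis, log scale) of the brightest probe set of each gene (x axis) on the 3 M5 arrays (red, left) and the 3 SW480 arrays (blue, right); marker shape gives the replicate, and black lines are group means with M5 replicates 2 and 3 counted as 1 sample. TCN1 is at 135 to 256 in M5 and 13.7 to 42.0 in SW480, and PCCA ranges from 129 to 2984 within SW480.

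Of the other 9 genes, none was called in limma, with adjusted p between 0.461 and 0.935. TCN2, the carrier that feeds cells, had signals of 20.8, 13.3 and 18.7 on M5 arrays and 27.7, 21.9 and 13.0 on SW480 arrays. The groups overlapped, and the log2 fold change of -0.19 (SE 0.43) was smaller than its error. Its 95% interval ran from -1.13 to 0.75, so these arrays do not exclude a difference in either direction.

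CD320, the receptor for B12-loaded transcobalamin, had signals of 187, 192 and 211 on M5 arrays and 120, 180 and 144 on SW480 arrays. Every M5 array was above every SW480 array, by as little as 1.04 times at the closest. On the log2 scale M5 exceeded SW480 by 0.43 (SE 0.23), with a limma adjusted p of 0.56. Absence of overlap is common here: 7.74% of all genes tested had every M5 array above every SW480 array and 8.36% had every M5 array below. Among the 10 genes, 3 stood above without overlap, TCN1, CD320 and PCCB, and 0 below.

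LMBRD1 encodes a lysosomal membrane protein needed for the vitamin to leave the lysosome. Its signals were 257, 267 and 256 on M5 arrays and 320, 255 and 386 on SW480 arrays. The M5 arrays lay close together, within the SW480 range, and the log2 fold change was -0.28 (SE 0.21). A further LMBRD1 probe set was left out by the filter, with signals of at most 2.20 in M5 and 8.15 in SW480.

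MMACHC, which strips the upper ligand from cobalamin in the cytosol, had signals of 61.9, 39.7 and 33.1 on M5 arrays and 22.8, 44.3 and 47.0 on SW480 arrays. The groups overlapped, with a log2 fold change of 0.25 (SE 0.38). MMADHC, which directs the vitamin to its cytosolic or mitochondrial enzyme, varied least between arrays. Its signals were 2559, 2516 and 2607 on M5 arrays and 2170, 2225 and 2655 on SW480 arrays, a log2 fold change of 0.13 (SE 0.14, 95% interval -0.17 to 0.43). Its highest SW480 array exceeded all M5 arrays.

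MTR, methionine synthase, remakes methionine from homocysteine with B12 as cofactor. Its brighter probe set had 120, 87.2 and 83.1 on M5 arrays and 75.4, 111 and 128 on SW480 arrays, a log2 fold change of -0.10 (SE 0.29). Its other probe set had 67.5, 29.7 and 26.2 on M5 arrays and 42.9, 73.3 and 105 on SW480 arrays, with -0.85 on the log2 scale (SE 0.43) and a limma adjusted p of 0.537. On both probe sets M5 was the higher group among replicates 1 and the lower one among replicates 2 and 3.

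MTRR, the reductase that restores oxidised methionine synthase, had 197, 203 and 190 on M5 arrays and 166, 306 and 233 on SW480 arrays for its brighter probe set. The M5 values lay within the SW480 range (log2 fold change -0.21, SE 0.25). The other MTRR probe set had 106, 54.6 and 42.0 on M5 arrays and 51.5, 57.1 and 63.8 on SW480 arrays, with M5 replicate 1 standing apart (log2 fold change 0.12, SE 0.36). The fold changes of the MTRR probe sets thus had opposite signs, each smaller than its error.

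PCCA and PCCB, the alpha and beta subunits of propionyl-CoA carboxylase, had unlike patterns over these arrays. PCCA had signals of 391, 256 and 261 on M5 arrays and 129, 1134 and 2984 on SW480 arrays. SW480 replicate 1 was below all M5 arrays, and SW480 replicates 2 and 3 were above them. PCCA averaged 325 ± 93.5 in M5 (SD, n = 2) and 1416 ± 1448 in SW480 (SD, n = 3), so the SD of SW480 was as large as its mean. On the log2 scale the difference was -1.35 with an SE of 0.82 and a limma adjusted p of 0.612.

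The spread of PCCA within SW480 was 23.1 times from lowest to highest, or an SD of 2.31 on the log2 scale. Only 11 of 14243 genes tested had a larger SD there, and the median over genes was 0.37. In M5 the SD of PCCA over the 3 arrays was 0.34, the same as the median over genes of 0.34. Deposited PCCA signals were 185.7, 311.3 and 329.4 on M5 arrays and 51.1, 1038.2 and 4359.4 on SW480 arrays, so the spread was present before scaling. PCCA was called lower in M5 without SW480 replicate 1 (log2 fold change -2.62, limma adjusted p = 0.0185) and without replicate 1 of both groups (-2.82, 0.00344), and with array weights (-2.33, 0.0274). In the other alternatives its limma adjusted p was 0.495 or above, and without SW480 replicate 3 the difference was -0.38. These fits called more genes in general. Without SW480 replicate 1, 36 of 14191 genes were lower in M5 (0.254%) and 79 higher (0.557%). Without replicate 1 of both groups, 766 of 14162 were lower and 615 higher, and with array weights 591 of 14243 were lower (4.15%) and 446 higher (3.13%). Between the replicate 1 arrays alone PCCA differed by 1.58 in the other direction. A dimmer PCCA probe set showed the same order among SW480 arrays, 2.55, 18.6 and 21.0, against 12.1, 7.12 and 12.5 on M5 arrays. A further PCCA probe set was left out by the filter, with signals of at most 5.18 in M5 and 6.27 in SW480. The part of the dim replicate 1 arrays in the PCCA values was not tested.

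PCCB had signals of 304, 406 and 393 on M5 arrays and 227, 266 and 289 on SW480 arrays. All M5 arrays were above all SW480 arrays, the closest by 1.05 times. M5 exceeded SW480 by 0.49 on the log2 scale (SE 0.21), the largest positive value after TCN1 among the 10 genes. Its difference was 0.42 between the replicate 1 arrays and 0.52 between the others. A further PCCB probe set was left out by the filter, with signals under 1 on every array.

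**Figure D3:**
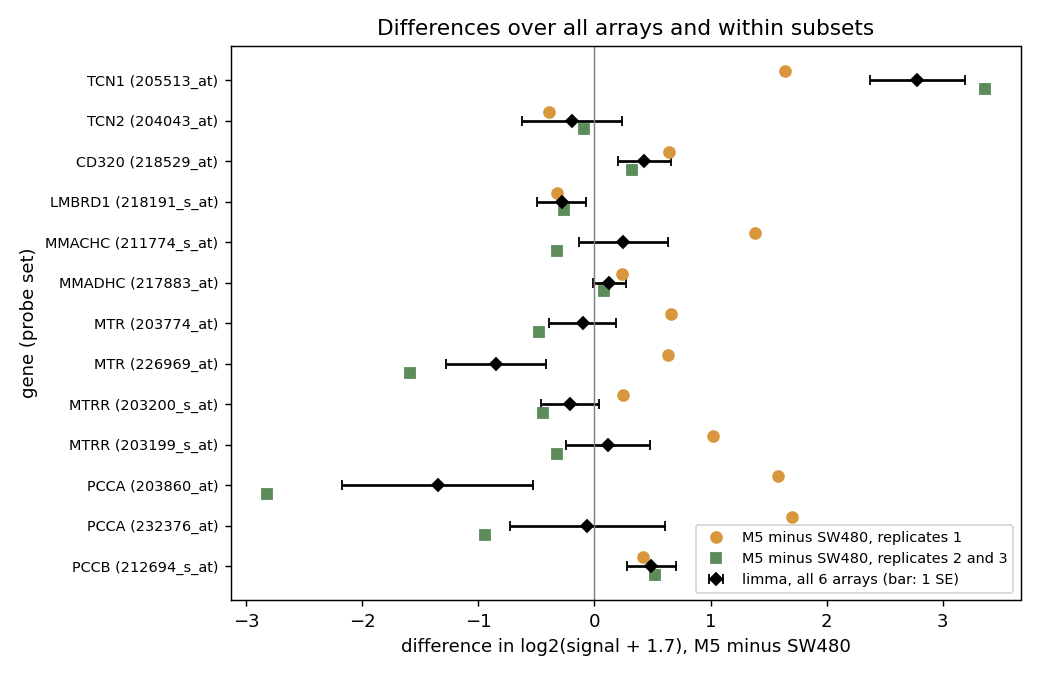
Difference in log2(signal + 1.7) between M5 and SW480 (x axis) for the 13 kept probe sets (y axis): black diamonds with 1 SE from limma over all 6 arrays, orange circles for replicates 1 alone and green squares for replicates 2 and 3. TCN1 is positive in all 3, at 1.64, 2.78 and 3.36, and the brighter PCCA probe set is at 1.58 on replicates 1 and -2.82 on replicates 2 and 3.

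For 4 of the 10 genes, MMACHC, MTR, MTRR and PCCA, the difference had opposite signs between replicates 1 and between replicates 2 and 3. The same held for 49.2% of all genes tested. TCN1, TCN2, CD320, LMBRD1, MMADHC and PCCB kept 1 sign. All 4 genes were higher in M5 on the dim replicate 1 arrays and lower in M5 on the others. The 49.2% covers both directions, and the share of all genes with this direction was not counted. The part of array brightness in these changes of sign was not tested.

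All 10 genes had at least 1 probe set that passed the filter, and 13 of the 16 probe sets did. Of the 10 log2 fold changes, 5 were above and 5 below 0, and 8 were smaller than 0.5 in size. Their median was 0.01, beside -0.01 over all 14243 genes. Across the 6 arrays, which share groups and brightness, PCCB had the highest Pearson r with TCN1 (0.82) and MTRR the lowest (-0.61), given as a description only. Likewise as a description, PCCA had r = 0.86 with MTR, 0.75 with MTRR and -0.13 with PCCB, and MMACHC had 0.87 with MTR.

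The 6 genes whose pattern over the 6 arrays was most like that of TCN1 were UBBP2, PROSER2, FBL, VHRT, ATP8B3 and PRICKLE1, with Pearson r between 0.9889 and 0.9970 on the log2 scale. VHRT had 682, 1105 and 1179 on M5 arrays and 168, 74.7 and 170 on SW480 arrays. Like TCN1, it was the lowest of its group on M5 replicate 1 and on SW480 replicate 2. PROSER2 had 149, 195 and 195 on M5 arrays and 78.0, 53.1 and 77.2 on SW480 arrays. FBL, the gene of the nucleolar methyltransferase fibrillarin, was likewise lowest on these arrays, with a smaller log2 fold change of 0.39. With so few arrays and so many genes, high correlations are to be found for any gene with this contrast.

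Neighbours of TCN1 on chromosome 11 were not called. Of the 4 protein-coding genes on each side in the RefSeq order, 3 have a probe set of their own. MRPL16, a mitochondrial ribosomal protein gene, had 323, 319 and 382 on M5 arrays and 365, 355 and 443 on SW480 arrays, a log2 fold change of -0.18 (limma adjusted p = 0.792). STX3, a syntaxin gene of membrane fusion, had 89.3, 119 and 116 on M5 arrays and 159, 94.5 and 99.5 on SW480 arrays, a log2 fold change of -0.09 (limma adjusted p = 0.939). CBLIF was left out by the filter, with at most 14.2 in M5 and 5.83 in SW480.

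The rest of the pathway was read from 6 lists of 85 further genes, of which 80 have a probe set of their own and 68 were kept. In limma 0 were called higher and 0 lower. At an unadjusted limma p under 0.05, 0 were higher and 6, or 8.82%, lower, beside 5.43% of all genes tested higher and 6.12% lower, and the median log2 fold change was -0.06. Without M5 replicate 1, 3 were lower, GART, MAT2A and MTAP, or 4.41%, beside 0.780% of all genes lower and 0.605% higher in that fit. Without replicate 1 of both groups 2 were higher and 5 lower, or 2.94% and 7.35%, beside 4.34% of all genes higher and 5.41% lower. Groups did not overlap for 3 genes higher in M5 and 9 lower, or 17.6% of the 68 together. Over all genes tested the share was 16.1%, with 7.74% higher and 8.36% lower.

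In the list of intracellular B12 handling, 9 of 9 genes were kept and their median log2 fold change was -0.12. MMUT, the methylmalonyl-CoA mutase, had 162, 165 and 149 on M5 arrays and 154, 216 and 168 on SW480 arrays, a log2 fold change of -0.16 (SE 0.22). Named by the size of the change among genes without overlap were CLYBL, whose enzyme removes a metabolite that harms B12, with 0.44 (SE 0.24), and THAP11, a transcription factor that acts with HCFC1 on MMACHC, with -0.57 (SE 0.28). Of the genes of transport and uptake, 3 of 7 were kept, with a median of -0.05. CUBN, the receptor of intrinsic factor in the gut, was left out by the filter, with at most 2.92 in M5 and 4.67 in SW480.

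Genes that supply propionyl-CoA from branched-chain amino acids or attach biotin had a median of -0.07 over 22 kept of 23. ACADSB, a dehydrogenase of isoleucine breakdown, had 27.7, 35.5 and 40.8 on M5 arrays and 51.3, 59.2 and 62.3 on SW480 arrays. All M5 arrays were lower, by -0.72 on the log2 scale (SE 0.30), with a limma adjusted p of 0.464. HSD17B10 had -0.36 (SE 0.19) and BCKDHA 0.25 (SE 0.27). HLCS, which attaches biotin to the carboxylases, overlapped between groups (-0.57, SE 0.38). In the list from succinyl-CoA into the citric acid cycle, 8 genes had a median of -0.14, and SUCLG2, a succinyl-CoA ligase subunit, had 0.26 (SE 0.21).

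The methionine cycle list had 4 of 11 kept genes, or 36.4%, without overlap and lower in M5, and 0 higher. Over all genes tested these shares were 8.36% lower and 7.74% higher. None of the 11 was called in limma, and their median log2 fold change was 0.07. MAT2A, which makes S-adenosylmethionine from methionine, had 553, 186 and 163 on M5 arrays and 636, 820 and 562 on SW480 arrays. M5 replicates 2 and 3 were far below SW480, and M5 replicate 1 was just below the lowest SW480 array. The difference was -1.37 on the log2 scale (SE 0.39), with a limma adjusted p of 0.315, and it was -0.20 between the replicate 1 arrays and -1.96 between the others. MTAP, which salvages methionine from methylthioadenosine, had 159, 82.5 and 70.7 on M5 arrays and 201, 184 and 211 on SW480 arrays, a difference of -1.01 on the log2 scale (SE 0.30) with a limma adjusted p of 0.334. AHCYL1, a relative of S-adenosylhomocysteine hydrolase, had -0.55 (SE 0.19) and AHCY, that hydrolase, 0.10 (SE 0.15).

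In the folate cycle list the median was near 0 over 15 kept of 18 genes with a probe set. SLC46A1, the folate transporter of the gut, had 17.9, 25.4 and 27.5 on M5 arrays and 78.7, 51.5 and 38.0 on SW480 arrays, a difference of -1.15 on the log2 scale (SE 0.37) with a limma adjusted p of 0.366. All M5 arrays were lower, and the largest gap was between the replicate 1 arrays.

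**Figure D4:**
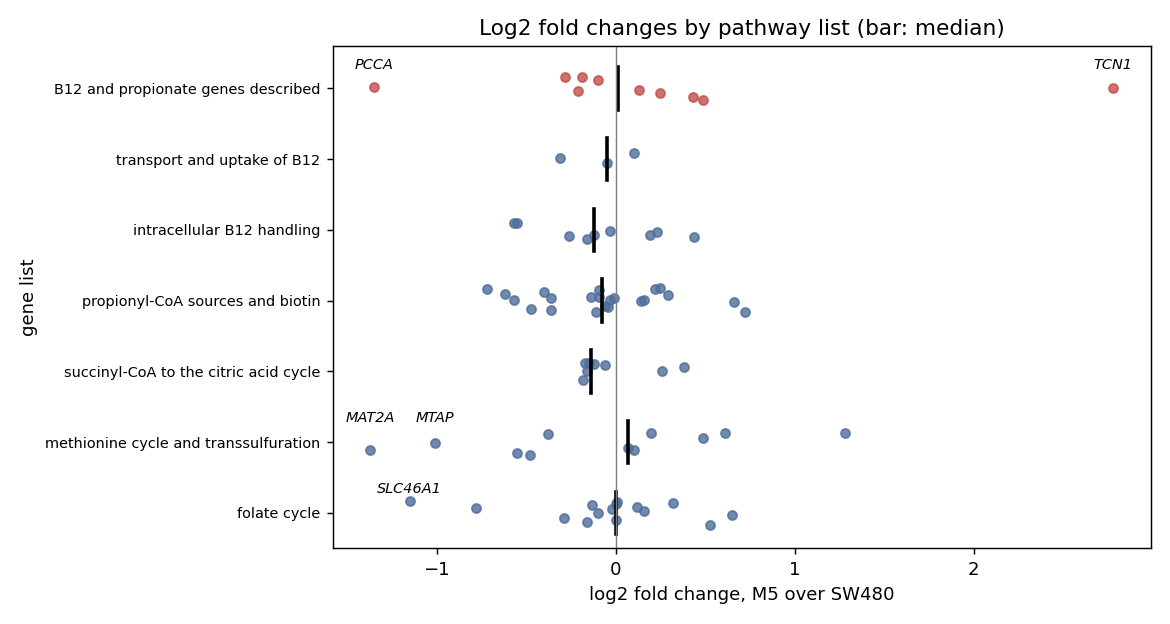
Log2 fold change of M5 over SW480 (x axis) for each kept gene (dots) of the 10 genes described (red) and of 6 lists of further pathway genes (blue), with list medians as black bars; vertical scatter within a row has no meaning. TCN1 at 2.78 is the only dot past the threshold, and MAT2A, MTAP and SLC46A1 are the most negative of the listed genes at -1.37, -1.01 and -1.15.

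Markers of neutrophils, of gastric and salivary secretory cells and of hepatocytes were read beside TCN1. Of 12 neutrophil granule and leukocyte markers, 3 were kept and 0 called, and the summed signal of the list was 106.6 to 132.8 on M5 arrays and 64.5 to 207.8 on SW480 arrays. The kept members were LCN2, CAMP and ITGAM. Of these 3, 2 had a positive log2 fold change and 1 a negative one, with a median of 0.36. LCN2, the neutrophil lipocalin, was the brightest of the list on average. It had 55.4, 87.0 and 59.3 on M5 arrays and 52.9, 15.4 and 156 on SW480 arrays. The groups overlapped, with a log2 fold change of 0.36 (SE 0.63). ITGAM had 5.45, 14.5 and 10.8 on M5 arrays and 25.4, 3.38 and 2.88 on SW480 arrays. Its groups overlapped too, with a log2 fold change of 0.40 (SE 0.75). CAMP, the cathelicidin gene, had 6.47, 5.58 and 4.42 on M5 arrays and 6.85, 29.1 and 13.9 on SW480 arrays, below all SW480 arrays, with a log2 fold change of -1.17 (limma adjusted p = 0.543). Of the defining genes left out by the filter, LTF, with at most 0.967 in M5 and 1.28 in SW480, was among the dimmest probe sets, and MPO had at most 9.40 in M5 and 8.63 in SW480, below the middle of all probe sets.

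The summed signal of 12 gastric and salivary markers was 132.1 to 256.3 on M5 arrays and 36.1 to 222.6 on SW480 arrays, with 5 kept and 0 called. LYZ, the lysozyme gene, had 63.9, 147 and 161 on M5 arrays and 73.5, 1.22 and 23.5 on SW480 arrays, with overlapping groups. The log2 fold change of LYZ was 2.72 (SE 0.91, limma adjusted p = 0.381), close to the 2.78 of TCN1. MUC5AC, a gastric mucin gene, had 19.1, 28.2 and 12.8 on M5 arrays and 12.6, 10.6 and 5.47 on SW480 arrays, just without overlap. TFF1, a trefoil factor gene left out by the filter, went the other way without overlap, with 0.583, 2.55 and 0.55 on M5 arrays and 17.6, 5.15 and 3.78 on SW480 arrays. All 5 kept genes had a positive log2 fold change, with a median of 0.20. Members that went the other way, such as TFF1, were thus among those left out by the filter.

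Hepatocyte markers summed to 104.9 to 608.6 on M5 arrays and 88.1 to 333.4 on SW480 arrays, and 0 of 5 kept genes of 10 were called. Of the kept genes, 4 had a positive log2 fold change and 1 a negative one, with a median of 0.62. APOA1 had 0.02 (SE 0.68) and APOA2 0.62 (SE 0.81), both with overlapping groups. TTR, the transthyretin gene, had 196, 73.1 and 5.68 on M5 arrays and 5.17, 1.67 and 1.43 on SW480 arrays. All M5 arrays were above all SW480 arrays, with a log2 fold change of 3.52 (SE 0.97), above that of TCN1, and a limma adjusted p of 0.307. FGB, a fibrinogen gene, had 202, 23.8 and 9.33 on M5 arrays and 11, 3.22 and 1.67 on SW480 arrays, with overlapping groups, a log2 fold change of 2.70 (SE 0.93) and a limma adjusted p of 0.390. Both were highest on M5 replicate 1, the M5 array with the lowest TCN1. SERPINA1, the brightest of the kept genes on average, had a log2 fold change of -0.47 (SE 0.54), and ALB, left out by the filter, had at most 11.4 in M5 and 7.38 in SW480. The part of these markers in the TCN1 difference was not tested. In such bulk samples, more cells with the transcript and more transcript per cell cannot be told apart.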

How the data were processed

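Total RNA of M5 and SW480 was measured on 3 arrays each. The authors deposited 1 linear signal intensity per probe set, and GCOS 1.4 is the software that the submitters' processing notes name. Settings and scaling target: not given in the sources used here. Of 54675 probe sets, 62 controls were left out, and the platform annotation pairs 41091 with a single symbol, 1801 with several and 11721 with none. Signals were quantile normalised and tested as log2(signal + 1.7), where 1.7 is the 20th percentile over the deposited table. Removing the dimmest 40% by mean left 32768 probe sets. M5 was compared with SW480 in limma 3.58.1 under R 4.3.3 (lmFit, then eBayes with trend), with two-sided tests, Benjamini-Hochberg adjusted over all kept probe sets, threshold 0.05. The brightest kept probe set stands for a gene.

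The genes, lists and tests were chosen with earlier results of these data known. All probe sets of the 10 genes are given. From each pathway list, genes past the threshold were named, and up to 3 with the largest change among those without overlap whose higher mean exceeded the median signal. MMUT, CUBN, HLCS and AHCY were named for their roles, outside that rule and after values were seen, as were the markers singled out. The 6 genes most like TCN1 were taken by Pearson r, with locus and clone names skipped. The fit was checked on simulated signals. Alternatives changed scaling, pseudocount (0.425, 6.8), filter, variance model, probe set choice, blocks and arrays. For 5 list symbols no probe set was used here. Figures were drawn with matplotlib 3.10.9.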

Additional observations from a re-analysis of the deposited data

How the results depend on the processing

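Across 20 alternatives TCN1 stayed higher in M5, with log2 fold changes of 2.33 to 3.44, and it passed the threshold in 9 of them (limma adjusted p from 0.000593 to 0.625). It did not pass, leaving 0 genes of the 10 called higher, with no scaling between arrays (2.81), the smaller pseudocount of 0.425 (2.85), the lowest 60% left out (2.78), no intensity trend (2.78), M5 replicates 2 and 3 averaged (2.64) or the 18S control as a block (2.55, adjusted p = 0.0765). The replicate block gave 2.78 with an adjusted p of 0.0536 and 0 genes called. The main fit did not pair arrays that share a replicate number. Their departures from the group averages had r of 0.107, 0.0156 and 0.0707 for numbers 1, 2 and 3. Over the 10% brightest probe sets, arrays sharing a number had r of 0.9525, 0.8945 and 0.9199 in the same order. There SW480 replicate 1 had 0.9094 and 0.9128 with the other SW480 arrays, and M5 replicate 1 had 0.9349 and 0.9328 with the other M5 arrays. Whether the replicate 1 arrays share a batch was not tested.

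Leaving out 1 array in turn gave TCN1 values of 2.33 to 3.11 (adjusted p of 0.0181 to 0.297), 0 to 1 of the 10 genes higher and 0 to 1 lower, and 0 listed pathway genes higher and 0 to 3 lower, GART, MAT2A and MTAP without M5 replicate 1. PCCA was the gene called lower without SW480 replicate 1, with array weights (-2.33) and without replicate 1 of both groups, 1 gene in each. Without replicate 1 of both groups 2 listed genes were higher, BTD and FPGS, and 5 lower, AHCYL1, GART, HIBCH, MAT2A and MTAP; array weights called the same 5. Those fits also called 615 higher and 766 lower of 14162 genes without replicate 1 of both groups, and 446 higher and 591 lower of 14243 with array weights.

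Of 239 values of the other 12 kept probe sets, 217 kept direction and call, 5 passed the threshold and 17 changed sign without a call. TCN2 had 0.01 with the 18S control block and -0.44 to 0.04 with 1 array left out. MMACHC had -0.33 without replicate 1 of both groups, -0.12 with array weights and -0.07 to 0.44 with 1 array left out. The second MTRR probe set had -0.05 with median centring, -0.01 with trimmed-mean scaling, -0.33 without replicate 1 of both groups, -0.19 with array weights and -0.25 to 0.40 with 1 array left out. On the same footing the brighter MTRR probe set ranged from -0.44 to 0.01 and the brighter MTR probe set from -0.32 to 0.06. The second PCCA probe set had 0.01 with the smaller pseudocount and -0.86 to 0.37 with 1 array left out. The second MTR probe set was called lower without replicate 1 of both groups (-1.64, adjusted p = 0.0117) and with array weights (-1.37, adjusted p = 0.0269). The cause of these changes was not tested. Low signals give no firm fold, as the table has no detection calls.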
